A study of Mus musculus with 18 samples.

Results

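ISM012-042, an inhibitor of prolyl hydroxylase domain (PHD) enzymes that the series title calls gut-restricted, was compared with vehicle in the colon of mice with TNBS colitis. The comparison takes 12 of the 18 deposited libraries. They are 6 libraries labelled ISM012-042 and 6 labelled vehicle, all of colon tissue collected on day 2 of a colitis provoked with the hapten TNBS. The other 6 libraries come from sham colon at day 2 and serve here as a reference level. The labels give no strain, sex, age, dose or route, and nothing in them says whether libraries of a group came from separate animals, so p-values measure only the spread between these samples. Gene levels are given in TPM, a share of each library corrected for gene length. Fold changes are differences of means of log2(TPM + 1), ISM012-042 minus vehicle.

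PHD enzymes use oxygen and iron to hydroxylate the alpha subunits of hypoxia-inducible factors (HIF), which marks them for degradation through the von Hippel-Lindau protein. When PHD activity is low, HIF alpha subunits accumulate, pair with ARNT and bind hypoxia response elements that contain the letters ACGTG or GCGTG. Their targets include glycolytic enzymes, Vegfa, the feedback hydroxylase Egln3 and, in intestinal epithelium, genes of the mucosal barrier. The other pathway that the results turn on is the type I interferon response, in which a STAT and IRF complex binds interferon-stimulated response elements and induces antiviral effectors.

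No gene passed an adjusted p of 0.05 in either direction among 14129 tested of 35976 entries (limma with Benjamini-Hochberg adjustment, 0% of genes higher and 0% lower). The smallest adjusted p was 0.233. At an unadjusted p under 0.05, 2670 genes stood higher in ISM012-042 libraries (18.9%) and 18 stood lower (0.127%). Of those 18 genes, 7 belong to a list of 40 interferon-stimulated genes, and the only 3 genes whose 6 ISM012-042 libraries all lay below all 6 vehicle libraries (0.0212%) belong to it too: Isg15, Cmpk2 and Mx2. HIF targets, glycolytic enzymes and junction genes had fold changes close to that of the middle gene of the table.

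The fold changes as deposited were not centred on 0. Their median over all genes was 0.30, and 13011 genes had a positive fold change (92.1%) against 1118 with a negative one (7.91%). Scaling each library by the median ratio of its genes to their mean over libraries moved the median to 0.0054 and the signs to 7222 positive (51.1%) and 6907 negative (48.9%). It left 348 genes higher (2.46%) and 726 lower (5.14%) at an unadjusted p under 0.05, again with none at the adjusted threshold (0% higher, 0% lower, smallest adjusted p 0.555). Fold changes are therefore given below in both forms, as deposited and after median-ratio scaling.

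**Figure D1:**
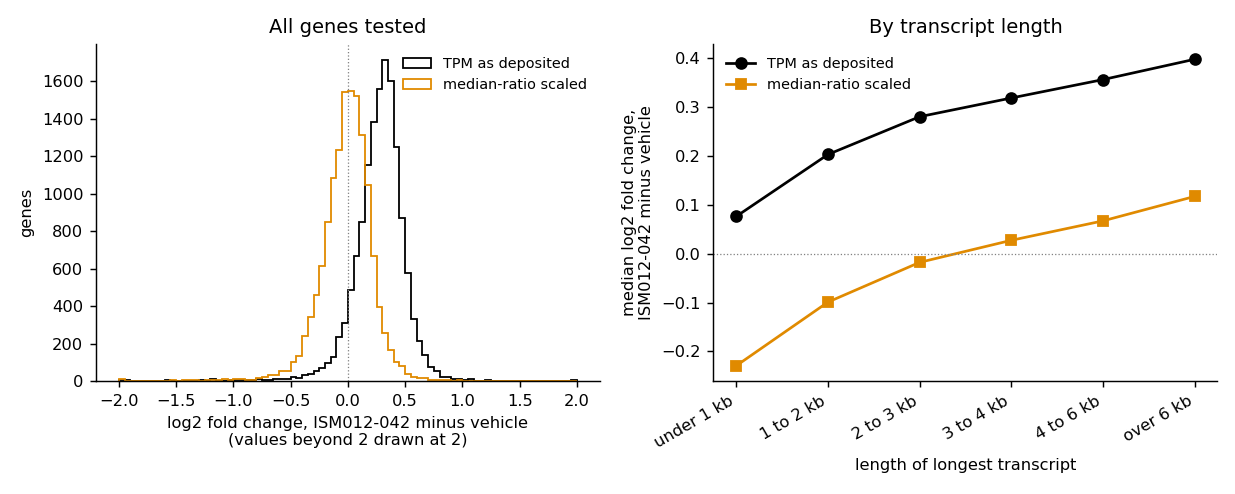
Left, number of genes (y axis) by log2 fold change of ISM012-042 minus vehicle (x axis) for TPM as deposited and after median-ratio scaling, with the peak right of 0 as deposited and at 0 after scaling. Right, median log2 fold change (y axis) by length of the longest transcript (x axis), which climbs from 0.076 to 0.40 as deposited and from -0.23 to 0.12 after scaling.

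A gradient with transcript length lay on top of that shift. Among the 13410 tested genes with a length in the GENCODE annotation, the median fold change was 0.076 for 984 genes with a longest transcript under 1000 bases and 0.20 for 2809 genes of 1000 to 2000 bases. It was 0.28 for 2933 genes of 2000 to 3000 bases, 0.32 for 2378 genes of 3000 to 4000, 0.36 for 2633 genes of 4000 to 6000, and 0.40 for 1673 genes of at least 6000 bases. The share of genes higher at an unadjusted p under 0.05 was 3.05% in the shortest class and 35.3% in the longest. After scaling, the share lower at that threshold was 24.5% in the shortest class and 0.359% in the longest.

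The same gradient was measured in each library as the median log2 deviation of the longest class from its mean over libraries, minus that of the shortest. This measure was chosen after the data had been seen. It lay between 0.057 and 0.31 in the 6 ISM012-042 libraries (median 0.089) and between -0.52 and 0.027 in the 6 vehicle libraries (median -0.19). The groups did not overlap, and the difference of 0.32 gave p = 0.00216 in a two-sided exact permutation test, which is the lowest value possible with 924 regroupings. Leaving out any 1 library gave differences of 0.26 to 0.37. Sham libraries spanned both groups, between -0.29 and 0.34.

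**Figure D2:**
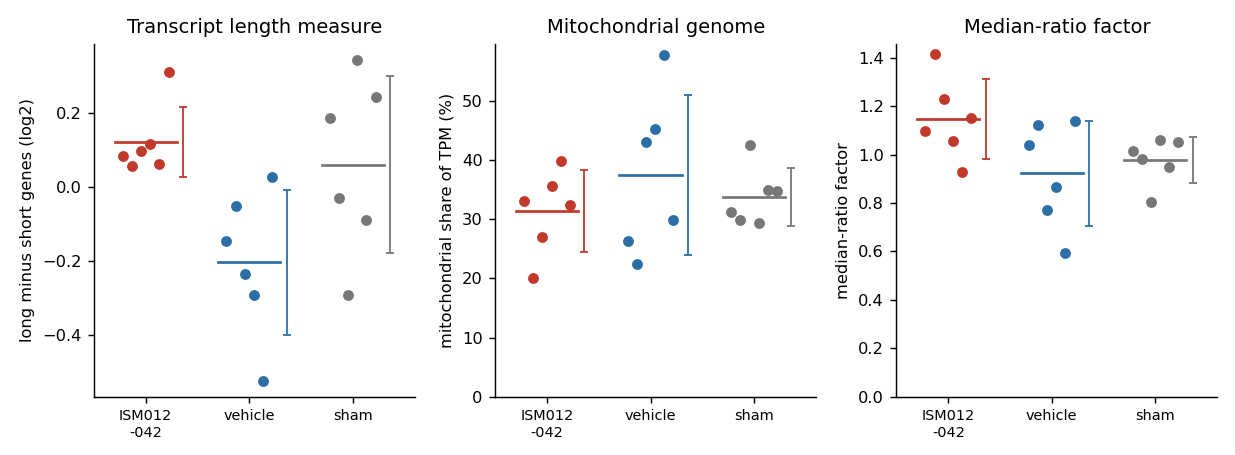
Each point is a library of the ISM012-042, vehicle or sham group (6 each), with lines at the mean and bars of 1 SD. The y axes give the long-minus-short measure (log2), the mitochondrial share of TPM (%) and the median-ratio factor. The 6 ISM012-042 libraries lie above all 6 vehicle libraries in the first panel and overlap them in the others.

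Libraries differed in other ways that touch the comparison. Transcripts of the mitochondrial genome took 31.3% ± 6.93 of TPM in ISM012-042 libraries and 37.5% ± 13.5 in vehicle libraries (SD, n = 6 each), a difference that did not stand out from the spread (exact permutation p = 0.359). All 13 mitochondrial genes were negative in fold change, at a median of -0.19 as deposited and -0.53 after scaling. Vehicle replicate 5 stood apart with a mitochondrial share of 57.8%, a median-ratio factor of 0.592 and the lowest long-minus-short value. Without it, 1324 genes in place of 2670 stood higher at an unadjusted p under 0.05. Replicate 2 of each group held far more neutrophil RNA than the rest, and Hoxb13, a marker of distal colon, ranged between 0.329 and 219 TPM in ISM012-042 libraries and between 1.52 and 179 TPM in vehicle libraries. The part of these differences in the results below was not tested beyond the fits named.

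The starts of 4 interferon-stimulated genes are shown first, because the element that interferon signalling acts on can be read in them. The list holds all 3 genes that were lower without overlap as deposited (0.0212% of genes tested). After scaling it holds 6 of 56 such genes (0.396%). Of the 4 genes shown, only Isg15 had groups that did not overlap. The lines give the 250 bases before a RefSeq start listed for each gene in GRCm38.p6, 5′ to 3′ on the gene's strand. Capitals mark matches to the element searched, which is GAAA, any 2 bases and GAAA again. On the opposite strand it reads TTTC, any 2 bases and TTTC. The start used for Oas3 lies inside the annotated gene (chr5:120753098-120777684), so its line runs into the gene. Isg15 lies at chr4:156200819-156201068 on the minus strand, Ifit1 at chr19:34640639-34640888 on the plus strand, Rsad2 at chr12:26456453-26456702 on the minus strand and Oas3 at chr5:120777660-120777909 on the minus strand.
Isg15: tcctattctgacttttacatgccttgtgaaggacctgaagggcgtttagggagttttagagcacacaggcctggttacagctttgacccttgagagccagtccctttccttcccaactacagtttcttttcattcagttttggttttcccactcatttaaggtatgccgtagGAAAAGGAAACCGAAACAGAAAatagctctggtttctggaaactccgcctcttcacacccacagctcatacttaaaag
Ifit1: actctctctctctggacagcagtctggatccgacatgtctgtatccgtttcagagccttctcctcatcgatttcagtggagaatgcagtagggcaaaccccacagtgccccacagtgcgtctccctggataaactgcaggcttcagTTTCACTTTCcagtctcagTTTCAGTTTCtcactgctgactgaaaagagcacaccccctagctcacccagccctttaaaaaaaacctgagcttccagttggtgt
Rsad2: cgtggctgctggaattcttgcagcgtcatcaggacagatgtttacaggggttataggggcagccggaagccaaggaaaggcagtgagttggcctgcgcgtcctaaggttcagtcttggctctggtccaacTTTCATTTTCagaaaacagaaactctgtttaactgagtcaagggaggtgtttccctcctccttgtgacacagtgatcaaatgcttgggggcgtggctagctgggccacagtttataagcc
Oas3: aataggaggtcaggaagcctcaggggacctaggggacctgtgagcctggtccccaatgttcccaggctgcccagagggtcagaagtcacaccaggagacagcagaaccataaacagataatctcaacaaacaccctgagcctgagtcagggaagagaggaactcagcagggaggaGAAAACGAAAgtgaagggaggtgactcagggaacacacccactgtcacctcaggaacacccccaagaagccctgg
The Isg15 stretch holds 3 overlapping matches that begin 78, 72 and 66 bases before the start, and Ifit1 has matches at 104 and 85 bases. Rsad2 and Oas3 have 1 match each, at 120 and 75 bases. Of 27 tested genes of the interferon-stimulated list with an entry in the promoter table, 13 held a match in the window of 250 bases before to 50 after the start (48.1%), against 405 of 10585 tested genes (3.83%). Cmpk2, Ifit2, Oasl1 and Oasl2 have no match in any window listed for them, and their listed starts lie inside the annotated genes. A match is a description of letters and was not tested for binding.

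Interferon-stimulated genes were lower in ISM012-042 libraries than in vehicle libraries by values that did not pass the adjusted threshold. Of 40 listed genes 38 were tested, Oas1a and Oas1g being too low. As deposited 35 of the 38 had a negative fold change with a median of -0.65, against 0.30 over all genes, and 7 were lower at an unadjusted p under 0.05 (18.4% of the list, against 0.127% of all genes tested). After scaling all 38 were negative with a median of -0.93, and 21 were lower at that threshold (55.3%, against 5.14%). The exceptions in sign as deposited were Isg20, Ifi27l2a and Samd9l, at 0.13, 0.25 and 0.12.

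Isg15, which encodes a ubiquitin-like modifier, had 9.52, 29.4, 17.3, 34.5, 8.35 and 13.5 TPM in ISM012-042 libraries, against 48.5, 71.8, 83.7, 46.6, 82.6 and 37.4 TPM in vehicle libraries. Every ISM012-042 library lay below every vehicle library. The fold change was -1.78 ± 0.63 as deposited (SE, unadjusted p = 0.0115, adjusted p = 0.233) and -2.11 ± 0.65 after scaling (unadjusted p = 0.00437, adjusted p = 0.555). The gene lies at chr4:156199424-156200818 in GRCm38.p6 and is short, with a longest transcript of 756 bases.

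Cmpk2, a mitochondrial nucleotide kinase next to Rsad2, had 3.17, 4.69, 4.75, 4.89, 3.86 and 2.81 TPM in ISM012-042 libraries and 13.1, 11.8, 8.96, 6.08, 5.996 and 6.11 TPM in vehicle libraries. The groups did not overlap, although the fold change of -0.90 ± 0.54 had an unadjusted p of 0.114 in the fit whose spread is shared with sham. Mx2, a dynamin-like antiviral GTPase, had a highest value of 1.18 TPM in ISM012-042 libraries and a lowest value of 1.59 TPM in vehicle libraries, with a fold change of -0.89 (unadjusted p = 0.121).

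Rtp4, an interferon-induced receptor transporter protein, had the smallest p of the list. Its 6 ISM012-042 libraries held 8.01, 19.5, 10.7, 15.8, 6.28 and 10.6 TPM, and its 6 vehicle libraries 28.4, 20.6, 41.2, 23.5, 27.4 and 18.6 TPM. The highest ISM012-042 library lay above the lowest vehicle library as deposited, and after scaling the groups did not overlap. On the log2 scale the difference was -1.15 ± 0.33 as deposited (unadjusted p = 0.00287, adjusted p = 0.233) and -1.47 ± 0.36 after scaling (unadjusted p = 0.000673, adjusted p = 0.555).

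The IFIT proteins bind viral RNA that lacks host cap marks. Ifit1 ranged between 5.11 and 19.2 TPM (median 6.64) in ISM012-042 libraries and between 17.8 and 45.9 TPM (median 29.5) in vehicle libraries, so that 1 library of each group overlapped. Its fold change was -1.72 ± 0.61 (unadjusted p = 0.0111). Ifit2 ranged between 2.69 and 7.21 TPM in ISM012-042 libraries (median 4.77) and between 7.08 and 32.2 TPM in vehicle libraries (median 15.95), with a fold change of -1.63 ± 0.72 and no overlap after scaling. Ifit1bl1 averaged 47.0 ± 17.3 TPM in ISM012-042 libraries and 99.6 ± 52.9 TPM in vehicle libraries (SD, n = 6 each), a fold change of -0.99 ± 0.45. Ifit3 and Ifit3b, at -1.17 and -0.66, are near-identical copies between which reads may be split, and the same doubt holds for other members of these families.

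In the oligoadenylate synthetase family, the members with enzyme activity make the messenger that activates RNase L. Oas3 averaged 3.08 ± 2.28 TPM in ISM012-042 libraries and 12.4 ± 9.41 TPM in vehicle libraries (SD, n = 6 each), with a fold change of -1.61 ± 0.63 (unadjusted p = 0.0193). Oasl2 averaged 21.7 ± 11.9 TPM against 60.2 ± 26.1 TPM in vehicle libraries, and its groups overlapped because vehicle replicate 2, at 22.9 TPM, lay below ISM012-042 replicates 2 and 4, at 23.6 and 44.8 TPM. Oasl1 had a fold change of -0.66 as deposited and -0.98 after scaling, where its groups did not overlap. Rsad2, which encodes viperin, had 1.82, 3.35, 3.26, 2.82, 2.66 and 1.99 TPM in ISM012-042 libraries and 14.0, 12.2, 7.94, 4.60, 3.92 and 2.99 TPM in vehicle libraries, with a fold change of -1.08 ± 0.54 (unadjusted p = 0.0631).

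**Figure D3:**
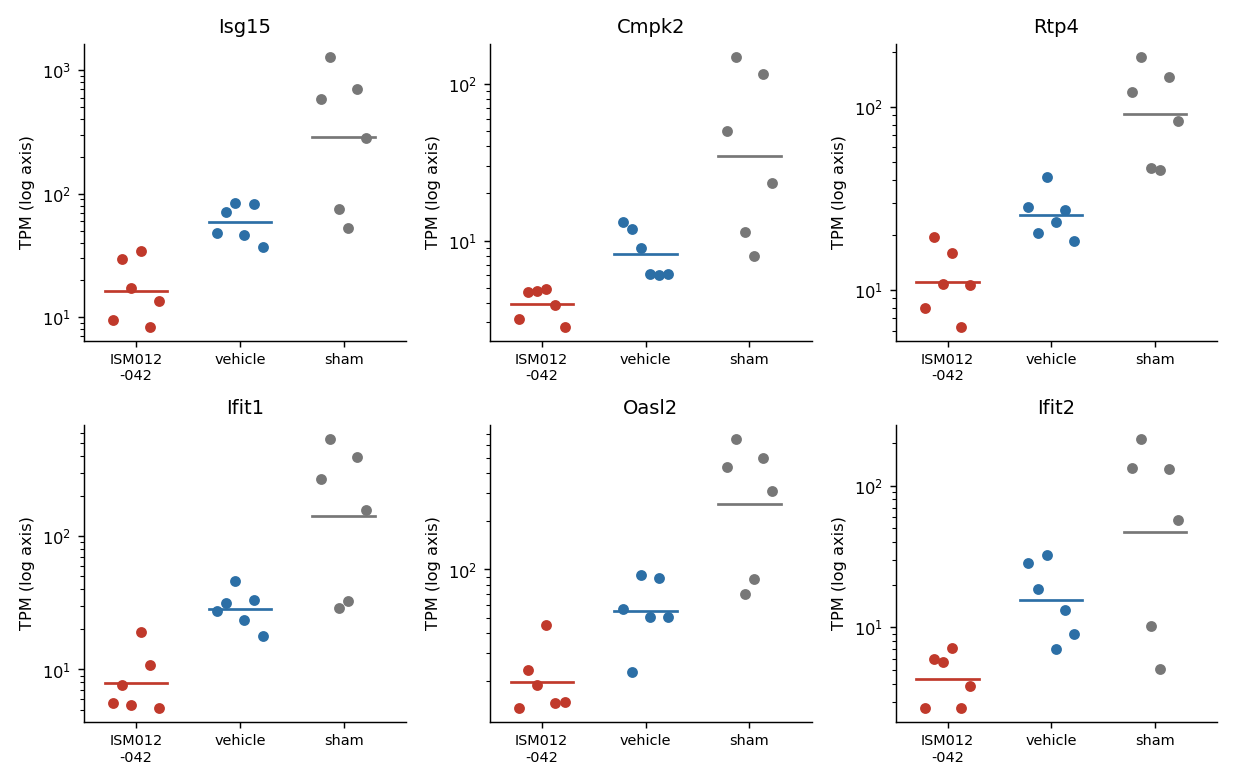
TPM on a log axis (y) of Isg15, Cmpk2, Rtp4, Ifit1, Oasl2 and Ifit2 in each ISM012-042, vehicle and sham library (points, 6 per group), with lines at the geometric mean. The ISM012-042 points lie below all vehicle points for Isg15 and Cmpk2, and sham points spread from near the vehicle level to far above it.

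The list also holds regulators of the response. Stat2 had -0.17 as deposited, Irf9 -0.32 and Irf7 -0.77, and the unadjusted p lay under 0.05 for none of them as deposited. After scaling, Irf9 (-0.65, unadjusted p = 0.00469) and Irf7 (-1.11, unadjusted p = 0.0364) lay under it. Usp18, the protease that removes ISG15 from its targets, had -1.26 (unadjusted p = 0.0628). Zbp1, a nucleic acid sensor, ranged between 10.03 and 45.7 TPM in ISM012-042 libraries and between 29.6 and 151 TPM in vehicle libraries, a fold change of -1.18 (unadjusted p = 0.029). The RNA sensors Ifih1 and Ddx58 had -0.15 and -0.09.

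Sham libraries held the most interferon-stimulated RNA and the widest spread of it. The mean log2 level of the 38 genes lay between 3.25 and 4.01 in ISM012-042 libraries, between 3.94 and 4.71 in vehicle libraries and between 4.47 and 7.34 in sham libraries. Isg15 ranged between 53.2 and 1267 TPM in sham libraries. With the sham libraries left out of the fit, 21 of the 38 genes in place of 7 were lower at an unadjusted p under 0.05 (0.255% of all genes), and with scaling as well 32 of the 38 (4.58% of all genes). Subtracting the median of each length class from each library left 37 of the 38 negative, with 21 lower in the fit of 18 libraries (1.83% of all genes) and 31 in the fit of 12 (1.74%). Without replicate 2 of each group 36 were negative and 7 lower (0.347%). On leaving out single libraries 32 to 36 were negative and 4 to 9 lower, against 0.0708% to 0.474% of all genes. The 4 came without vehicle replicate 3 (0.106%) and the 9 without ISM012-042 replicate 4 (0.156%). With array weights 2 were lower (1.66%), and with the mitochondrial share as a covariate 11 (1.17%). None of the 38 was higher at that threshold in these fits, where the share of all genes higher was 12.7% in the 12 libraries, 1.73% with scaling as well, 1.51% and 1.09% with length classes centred in 18 and 12 libraries, 17.6% without replicate 2, 9.55% with array weights and 15.5% with the covariate. No member passed the adjusted threshold in any of them.

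Genes of the interferon-gamma response and antigen presentation had mixed signs. Of 25 tested genes 15 were negative as deposited, with a median of -0.13 and none lower at an unadjusted p under 0.05. After scaling 20 were negative with a median of -0.40, and 3 were lower at that threshold, against 5.14% of all genes. Those 3, Gbp3, Irgm2 and Irgm1, were guanylate-binding and immunity-related GTPases. Gbp3 averaged 5.77 ± 3.42 TPM in ISM012-042 libraries and 12.2 ± 9.39 TPM in vehicle libraries, and Irgm2 averaged 11.8 ± 5.84 TPM in ISM012-042 libraries and 21.0 ± 17.99 TPM in vehicle libraries (SD, n = 6 each). The fold changes of Gbp3 and Irgm2 were -0.88 and -0.63 (unadjusted p = 0.122 and 0.148). The chemokine Cxcl10 had -0.96 and the immunoproteasome subunit Psmb9 -0.47. The class II genes Cd74, H2-Aa, H2-Ab1 and H2-Eb1 had positive fold changes of 0.42 to 0.60, with unadjusted p between 0.199 and 0.404.

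The targets of the compound and the HIF subunits had fold changes close to the median of all genes. All 11 tested genes were positive as deposited with a median of 0.29 and 3 higher at an unadjusted p under 0.05, Epas1, Hif3a and Arnt (18.9% of all genes), and 3 were positive and 8 negative after scaling with a median of -0.037 and none under an unadjusted p of 0.05. Egln1 and Egln2, which encode PHD enzymes, had 0.29 and 0.22 as deposited and -0.04 and -0.11 after scaling. Hif1a ranged between 19.9 and 183 TPM in ISM012-042 libraries and between 11.8 and 167 TPM in vehicle libraries, highest in replicate 2 of both, with a fold change of 0.04. Epas1, the alpha subunit of the HIF complex linked to iron uptake, had 32.3, 44.7, 29.7, 29.0, 29.3 and 27.3 TPM in ISM012-042 libraries and 16.3, 21.97, 25.3, 26.2, 19.2 and 28.4 TPM in vehicle libraries. Only vehicle replicate 6 reached into the ISM012-042 range. The fold change was 0.47 ± 0.16 as deposited (unadjusted p = 0.00665, adjusted p = 0.233) and 0.14 ± 0.17 after scaling (unadjusted p = 0.398). Hif3a, an inhibitory alpha subunit, and Arnt, the shared beta subunit, had 0.41 and 0.42 as deposited.

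Canonical HIF targets of feedback and adaptation were not separated between the groups. Of 29 tested genes 24 were positive as deposited, a share below the 92.1% of all genes, and 4 were higher at an unadjusted p under 0.05 (13.8%, against 18.9% of all genes). The count was 9 without vehicle replicate 1 (31%, against 22.3% of all genes), 8 without vehicle replicate 2 (27.6%, against 26.3%) and 6 without vehicle replicate 6 (20.7%, against 28.2%). After scaling 13 were positive and 16 negative with a median of -0.019, and none had an unadjusted p under 0.05.

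Car9 encodes a carbonic anhydrase and is a standard marker of HIF activity. The 250 bases before its start, at chr4:43506776-43507025 on the plus strand in GRCm38.p6, are shown because they carry a hypoxia response letter core close to the start (ACGTG on the opposite strand, CACGT in capitals, from 18 bases before the start).
Car9: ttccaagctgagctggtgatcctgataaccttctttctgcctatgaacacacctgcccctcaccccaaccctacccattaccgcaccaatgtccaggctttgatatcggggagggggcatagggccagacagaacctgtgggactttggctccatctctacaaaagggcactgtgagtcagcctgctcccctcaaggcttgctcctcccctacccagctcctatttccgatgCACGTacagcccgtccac
ACGTG on either strand lay in the window of 15 of 20 HIF targets with a promoter entry (75%) and of 13 of 19 glycolytic genes (68.4%), against 3018 of 10585 tested genes (28.5%). Car9 had 39.3, 40.1, 27.1, 43.0, 28.0 and 35.9 TPM in ISM012-042 libraries and 23.2, 51.7, 22.8, 17.0, 14.6 and 48.1 TPM in vehicle libraries. The vehicle libraries spanned both sides of the ISM012-042 range. The log2 difference was 0.40 as deposited (95% interval -0.15 to 0.94, unadjusted p = 0.143) and 0.07 after scaling (-0.32 to 0.47).

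Vegfa, the angiogenic growth factor, had 38.3, 90.9, 37.1, 43.7, 44.2 and 47.9 TPM in ISM012-042 libraries and 28.6, 79.1, 29.8, 30.05, 15.04 and 43.5 TPM in vehicle libraries. Replicate 2 was highest in both groups, and the other vehicle libraries overlapped the ISM012-042 range only through replicate 6. The fold change was 0.51 as deposited (95% interval -0.09 to 1.11) and 0.18 after scaling (-0.24 to 0.61). Egln3, the PHD enzyme that HIF induces most strongly in many cells, ranged between 15.1 and 68.4 TPM in ISM012-042 libraries (median 27.0) and between 7.92 and 91.5 TPM in vehicle libraries (median 20.6). Its fold change was 0.30 as deposited (95% interval -0.81 to 1.41) and -0.02 after scaling (-0.99 to 0.96), so the interval is wide on both sides of 0. Pdk1, which limits pyruvate entry into mitochondria, had 0.52 (-0.06 to 1.10) as deposited and 0.21 (-0.19 to 0.60) after scaling. Ndrg1 had 0.20 (-0.29 to 0.70) and Slc2a1, the glucose transporter, 0.27 (-0.22 to 0.75), both negative after scaling at -0.14 and -0.07.

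The 4 targets higher at an unadjusted p under 0.05 as deposited were Kdm4b, Ankzf1, Kdm3a and Rora, of which Kdm4b and Kdm3a encode histone demethylases that HIF induces. Kdm4b averaged 8.09 ± 1.35 TPM in ISM012-042 libraries and 5.54 ± 0.881 TPM in vehicle libraries (SD, n = 6 each), and only ISM012-042 replicate 5 lay under the highest vehicle library. Its fold change was 0.47 ± 0.13 (unadjusted p = 0.00234, adjusted p = 0.233) and 0.18 ± 0.09 after scaling (unadjusted p = 0.0618). Ankzf1, a ribosome quality control factor, averaged 15.3 ± 2.93 TPM in ISM012-042 libraries and 10.4 ± 2.89 TPM in vehicle libraries, at 0.53 and 0.21 after scaling. Kdm3a had 0.59 as deposited and 0.28 after scaling (unadjusted p = 0.0174 and 0.084).

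Glycolytic enzymes and their transporters had the median of the table. Of 19 tested genes 17 were positive as deposited with a median of 0.28 and 3 higher at an unadjusted p under 0.05 (18.9% of all genes). After scaling 5 were positive and 14 negative with a median of -0.061 and none under that p. The 3 were Pfkl, a phosphofructokinase subunit, Hk1 and Aldoa. Pfkl ranged between 61.1 and 79.8 TPM in ISM012-042 libraries (median 69.9) and between 30.8 and 77.6 TPM in vehicle libraries (median 44.4), a fold change of 0.54 ± 0.18 (unadjusted p = 0.00705) and 0.21 ± 0.12 after scaling. Ldha and Pgk1, with 0.29 and 0.21 as deposited, had -0.05 and -0.13 after scaling.

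Barrier and adenosine genes that HIF is reported to regulate showed the same picture. Of 15 tested genes 14 were positive as deposited with a median of 0.24 and 2 higher at an unadjusted p under 0.05 (18.9% of all genes). After scaling the median was -0.0062 with none higher and 1 lower (5.14% of all genes). The 2 were Ckb, a creatine kinase, and Abcb1b, an efflux pump. Abcb1b averaged 4.17 ± 1.29 TPM in ISM012-042 libraries and 2.36 ± 0.639 TPM in vehicle libraries (SD, n = 6 each), at 0.60 as deposited and 0.35 after scaling (unadjusted p = 0.0103 and 0.112). Cldn1, a sealing claudin, had 1.93, 2.06, 0.792, 1.79, 2.82 and 0.572 TPM in ISM012-042 libraries and 0.435, 1.15, 1.22, 1.75, 0.33 and 1.19 TPM in vehicle libraries, overlapping throughout (0.38, unadjusted p = 0.094). Nt5e, which makes adenosine from AMP, had 0.47 (unadjusted p = 0.624). Of 10 genes of iron uptake and storage 7 were positive as deposited with a median of 0.26. At an unadjusted p under 0.05 1 was higher, Aco1 (0.45), against 18.9% of all genes. After scaling the median was -0.071 with 1 lower, Ftl1 (-0.40), against 5.14% of all genes.

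**Figure D4:**
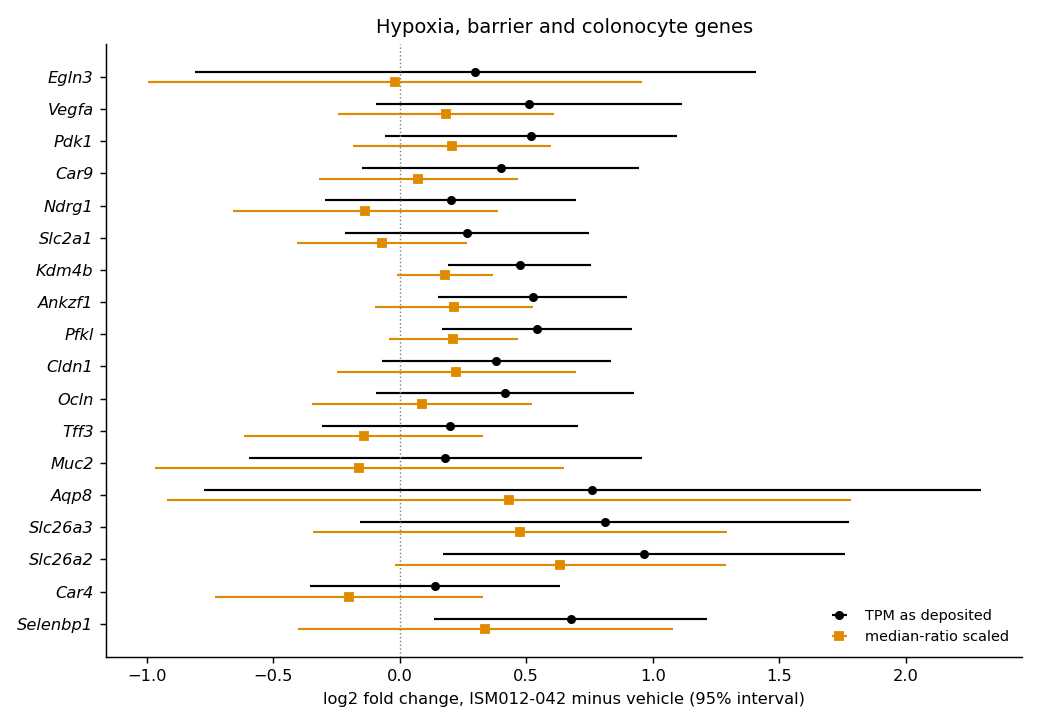
Log2 fold change of ISM012-042 minus vehicle (x axis) with its 95% interval for 18 HIF, barrier and colonocyte genes (rows), as deposited (black circles) and after median-ratio scaling (orange squares). Scaling moves the estimates left, and the scaled interval of every gene drawn includes 0.

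Junction genes gave no separation between the groups. Of 21 tested genes 20 were positive as deposited with a median of 0.28, and 6 were positive and 15 negative after scaling with a median of -0.055. Ocln, the tight junction protein occludin, ranged between 37.4 and 59.5 TPM in ISM012-042 libraries (median 49.3) and between 19.3 and 53.8 TPM in vehicle libraries (median 43.1), at 0.42 (-0.09 to 0.93) as deposited and 0.09 (-0.35 to 0.52) after scaling. Its sham median was 69.8 TPM. Cgn, which encodes cingulin, and Myh14, a non-muscle myosin, were the 2 higher at an unadjusted p under 0.05 as deposited (18.9% of all genes). They had 0.41 and 0.32 as deposited and 0.08 and -0.01 after scaling. After scaling 1 gene of the list was lower at that threshold (5.14% of all genes).

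Goblet cell genes were likewise near the median, with 1 member apart. Of 18 tested genes 15 were positive as deposited with a median of 0.27, and 7 after scaling with a median of -0.064. Ern2, the endoplasmic reticulum stress sensor of mucus-secreting cells, had 51.1, 26.3, 37.7, 36.2, 32.8 and 56.6 TPM in ISM012-042 libraries and 25.9, 25.4, 15.1, 25.2, 7.26 and 37.2 TPM in vehicle libraries. All but vehicle replicate 6 lay below the lowest ISM012-042 library. This gave a fold change of 0.90 ± 0.32 as deposited (unadjusted p = 0.0123, adjusted p = 0.233) and 0.58 ± 0.26 after scaling (unadjusted p = 0.0366, adjusted p = 0.637). Muc2, the gel-forming mucin, had 0.18 (-0.60 to 0.96) and Tff3, the goblet cell trefoil peptide, 0.20 (-0.31 to 0.70). Atoh1, the transcription factor of secretory cells, had 0.45 (unadjusted p = 0.0575).

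Surface colonocyte genes had the highest median of the epithelial lists. Of 29 tested genes 26 were positive as deposited with a median of 0.52 and 7 higher at an unadjusted p under 0.05 (24.1%, against 18.9% of all genes), and after scaling 17 were positive with a median of 0.18 and none under that p. The 7 became 1 (3.45%) without vehicle replicate 5 (9.37% of all genes) or mitochondrial genes (13.5%). They became 3 (10.3%) without vehicle replicate 4 (15.9% of all genes) or ISM012-042 replicate 6 (13.4%). The count was 4 (13.8%) without ISM012-042 replicate 4 (16.3% of all genes) or with the mitochondrial share as a covariate (15.5%). It was 8 (27.6%) without ISM012-042 replicate 5 (23.1% of all genes) or vehicle replicate 6 (28.2%). It was 9 (31%) without ISM012-042 replicate 2 (13.7% of all genes), without replicate 2 of each group (17.6%) or with Hoxb13 as a covariate (19.7%). Among the 7 were Slc26a2, Selenbp1, Scnn1b, Car2, Trpm6 and Hnf4a. Slc26a2, a sulfate transporter, had 85.0, 85.0, 135, 118, 89.2 and 138 TPM in ISM012-042 libraries and 75.6, 98.9, 48.0, 27.6, 22.2 and 108 TPM in vehicle libraries, and its 6 sham libraries lay between 154 and 605 TPM. The fold change was 0.97 ± 0.38 (unadjusted p = 0.0198) and 0.63 ± 0.31 after scaling (unadjusted p = 0.0567).

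Selenbp1, which encodes a methanethiol oxidase of the surface epithelium, had 596, 248, 679, 803, 771 and 766 TPM in ISM012-042 libraries and 378, 207, 419, 460, 444 and 424 TPM in vehicle libraries. Apart from replicate 2, the lowest library of both groups, the ISM012-042 libraries all lay above the vehicle libraries, and sham libraries lay higher still, between 890 and 1495 TPM. Its log2 difference was 0.68 ± 0.26 (unadjusted p = 0.0168, adjusted p = 0.239) and 0.34 ± 0.35 after scaling (unadjusted p = 0.35).

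The chloride and bicarbonate exchanger Slc26a3 and the water channel Aqp8 varied more between libraries. Slc26a3 ranged between 123 and 731 TPM in ISM012-042 libraries (median 263) and between 39.7 and 283 TPM in vehicle libraries (median 198), at 0.81 (-0.16 to 1.78). Aqp8 ranged between 15.4 and 354 TPM in ISM012-042 libraries and between 13.5 and 252 TPM in vehicle libraries, with a sham median of 761 TPM. Of 20 genes of fatty acid oxidation and butyrate use all were positive as deposited and 11 after scaling, with medians of 0.37 and 0.039. As deposited 2 were higher at an unadjusted p under 0.05 (18.9% of all genes), Acadm (0.47) and Ppargc1a (0.67).

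Neutrophil genes were lower in the ISM012-042 libraries on average, within a spread set by single libraries. The 16 tested markers of 18 were all negative, at a median of -1.04 as deposited and -1.31 after scaling, and 1 was lower at an unadjusted p under 0.05, the granule protein gene Ngp (-1.57, unadjusted p = 0.0335). S100a8, a calprotectin subunit, had 114, 2994, 24.3, 76.5, 82.1 and 13.6 TPM in ISM012-042 libraries and 249, 12002, 204, 128, 73.8 and 435 TPM in vehicle libraries. Replicate 2 held the most in both groups, and among the others only vehicle replicate 5 lay below the highest ISM012-042 library, replicate 1. The fold change was -1.94 ± 1.203 (unadjusted p = 0.125).

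The summed TPM of all 18 listed neutrophil markers, of which 16 were tested, ranged between 95.5 and 7507 in ISM012-042 libraries. In vehicle libraries it ranged between 191 and 26714. Without replicate 2 of each group all 16 stayed negative with a median of -0.85, and 9 were lower at an unadjusted p under 0.05 (0.347% of all genes). Without vehicle replicate 2 alone the median was -0.22, with 11 negative and none lower (0.113% of all genes). Without ISM012-042 replicate 2 alone the median was -1.67, with 9 lower (0.474% of all genes). With array weights 14 of the 16 were lower (median -1.96, 1.66% of all genes), and with the mitochondrial share as a covariate 14 were lower too (median -1.81, 1.17%). In bulk tissue fewer cells of a type and less RNA per cell cannot be told apart. Ly6g went against the other markers in sham libraries, where it averaged 352 TPM while S100a8 averaged 3.82 TPM.

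Cytokines and chemokines followed the same libraries. Of 8 tested cytokines 5 were negative as deposited with a median of -0.32 and 1 lower at an unadjusted p under 0.05 (0.127% of all genes). After scaling all 8 were negative with a median of -0.57 and 2 lower (5.14% of all genes). Il1b, the interleukin of the inflammasome, had 15.98, 177, 9.91, 8.13, 7.90 and 3.04 TPM in ISM012-042 libraries and 104, 1564, 12.3, 10.9, 9.14 and 53.4 TPM in vehicle libraries, at -1.73 ± 1.04 (unadjusted p = 0.115). Il1a had -1.93 ± 0.84 (unadjusted p = 0.0344). Of 23 chemokines 13 were negative as deposited with a median of -0.018 and 2 lower (0.127% of all genes). The 2 were Cxcl2 (-2.72, unadjusted p = 0.0251) and Ccl3 (-2.21, unadjusted p = 0.0381), both attractants of myeloid cells. Cxcl2 had 10.3, 78.6, 0.988, 5.09, 2.21 and 0 TPM in ISM012-042 libraries and 77.0, 1148, 18.7, 9.33, 3.46 and 33.6 TPM in vehicle libraries. After scaling 18 chemokines were negative with a median of -0.31 and 3 lower (5.14% of all genes).

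Other inflammatory lists had medians under that of all genes, which was 0.30 as deposited and 0.0054 after scaling. Of 22 antimicrobial and acute-phase genes 12 were negative as deposited with a median of -0.052. After scaling 16 were negative with a median of -0.33 and 1 lower at an unadjusted p under 0.05 (5.14% of all genes). Reg3b, an antibacterial lectin, ranged between 18.1 and 5972 TPM in ISM012-042 libraries and between 24.7 and 19326 TPM in vehicle libraries, and Hp, haptoglobin, between 14.7 and 1131 TPM in ISM012-042 libraries and between 11.96 and 928 TPM in vehicle libraries. Neither group stood apart. Of 16 genes of NF-kB feedback 10 were positive as deposited with a median of 0.033. After scaling 1 was positive and 15 negative with a median of -0.28, and 1 was lower at that threshold (5.14% of all genes).

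Marker lists of other cells are read against the 92.1% of all genes with a positive fold change. Adipocyte markers had 12 of 12 positive at a median of 1.08 as deposited and 0.75 after scaling (11 positive), none with an unadjusted p under 0.05. The median as deposited was 0.60 without vehicle replicate 1, 0.68 without vehicle replicate 2 and 0.55 without replicate 2 of each group. Their summed TPM ranged between 262 and 4621 in ISM012-042 libraries (median 2628) and between 76.3 and 3466 in vehicle libraries (median 958). Adipoq, adiponectin, had 147, 77.1, 12.4, 144, 287 and 29.6 TPM in ISM012-042 libraries and 0.161, 0.078, 21.98, 197, 63.6 and 161 TPM in vehicle libraries, near 0 in vehicle replicates 1 and 2. Mesothelial markers had a median of 0.66 as deposited and 0.43 after scaling, with 3 of 7 higher at an unadjusted p under 0.05 as deposited (18.9% of all genes) and none after scaling (2.46%). Gpm6a was the lowest of these in p (0.68, unadjusted p = 0.0128).

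Smooth muscle markers (10 of 10 positive, median 0.47 as deposited and 0.14 after scaling) and endothelial markers (13 of 13, 0.39 and 0.085) lay closer. Monocyte and macrophage markers were positive in 14 of 15 (0.47 and 0.14), T and NK cell markers in 12 of 12 (0.27 and 0.022) and mast cell markers in 5 of 5 (0.22 and -0.030). B and plasma cell markers were positive in 13 of 13 (0.45 and 0.16). Jchain, the joining chain of secreted IgA, had 349, 284, 437, 407, 328 and 389 TPM in ISM012-042 libraries and 226, 216, 159, 356, 84.0 and 227 TPM in vehicle libraries, where replicate 4 alone reached the ISM012-042 range. Its fold change was 0.90 ± 0.27 as deposited (unadjusted p = 0.0039, adjusted p = 0.233) and 0.56 ± 0.23 after scaling (unadjusted p = 0.025).

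Epithelial markers, which define the tissue, were abundant in every library, with a summed TPM between 11120 and 13258 in ISM012-042 libraries and between 6953 and 15626 in vehicle libraries. All 11 were positive as deposited (median 0.15). All 11 were negative after scaling (median -0.18), with 1 lower at an unadjusted p under 0.05 (5.14% of all genes). Enteroendocrine markers were positive in 8 of 10 (0.23 and -0.079), tuft cell markers in 7 of 7 (0.31 and 0.086), enteric neuron and glia markers in 6 of 11 (0.040 and -0.22) and genes of colon position in 7 of 8 (0.38 and 0.091).

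Repair genes showed a wide spread between libraries. Cell cycle genes were positive in 24 of 24 (median 0.38 as deposited, 0.098 after scaling) with none at an unadjusted p under 0.05, and Mki67 ranged between 7.61 and 55.4 TPM in ISM012-042 libraries and between 2.03 and 57.4 TPM in vehicle libraries. Matrix genes were positive in 16 of 22 (0.40 and 0.072) and angiogenesis genes in 16 of 16 (0.36 and 0.096). Genes of epithelial regeneration were positive in 11 of 18 (0.092 and -0.20), and Axin2, a WNT target, was higher at an unadjusted p under 0.05 in both forms, at 0.57 ± 0.21 and 0.30 ± 0.13 (unadjusted p = 0.0123 and 0.0386).

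**Figure D5:**
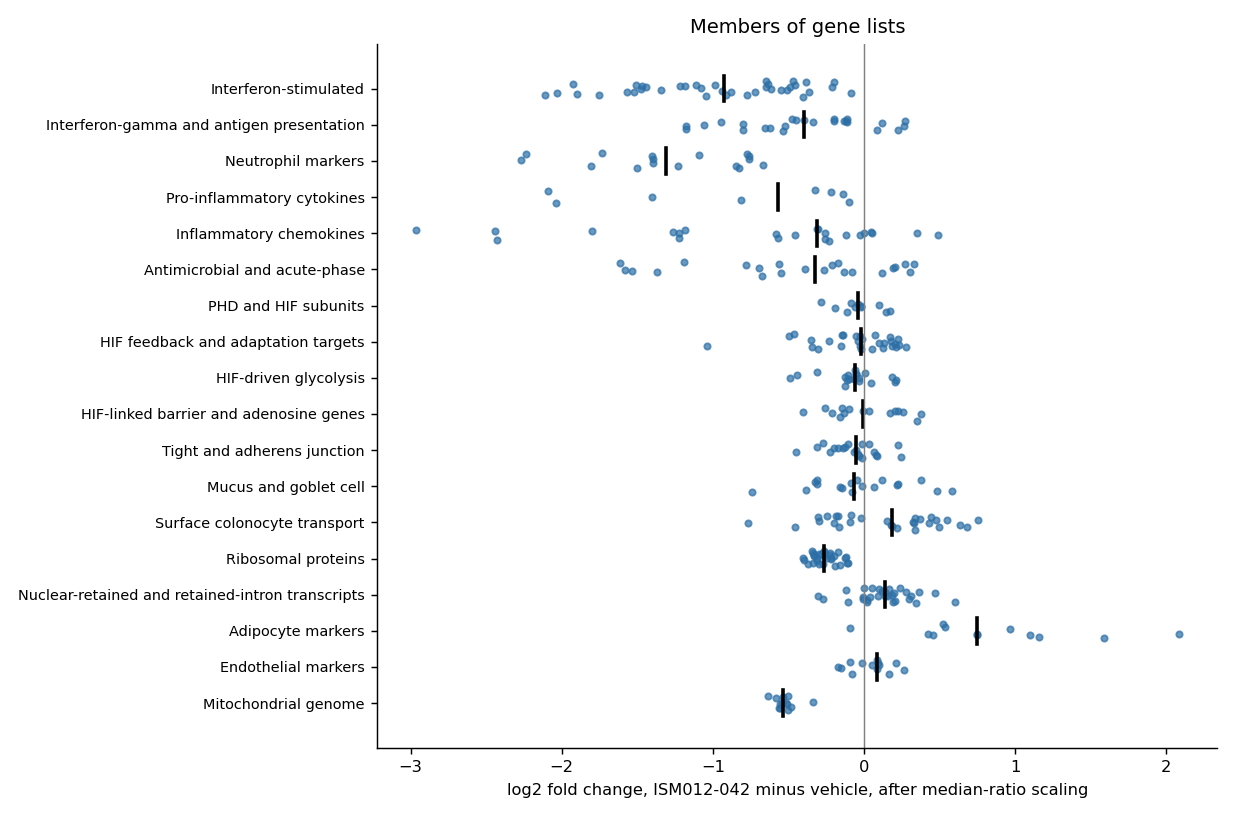
Log2 fold change of ISM012-042 minus vehicle after median-ratio scaling (x axis) of each tested member (points) of 18 gene lists (rows), with a black bar at the list's median. The interferon-stimulated members all lie left of 0, the HIF, glycolysis and junction members straddle 0, and the adipocyte members lie mostly right of it.

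Lists of genes of general function are given with the length gradient in view. Ribosomal protein genes, which are short, had a median of 0.074 as deposited and -0.26 after scaling, where all 30 were negative and 14 lower at an unadjusted p under 0.05 (46.7%, against 5.14% of all genes). With each length class centred, 1 of the 30 was lower (3.33%, against 1.83%). Nuclear genes of oxidative phosphorylation had 0.14 and -0.20, with 7 of 28 lower after scaling (5.14% of all genes). Transcripts known for nuclear retention or retained introns were positive in 30 of 30 as deposited with a median of 0.47, and 19 were higher at an unadjusted p under 0.05 (63.3%, against 18.9% of all genes). The count was 10 with array weights (33.3%, against 9.55%) and 12 without vehicle replicate 5 (40%, against 9.37%). After scaling 24 were positive with a median of 0.14 and 6 higher (2.46% of all genes). With each length class centred, 24 were positive with a median of 0.16 and 5 higher (16.7%, against 1.51% of all genes). Malat1, a nuclear long non-coding RNA, averaged 102 TPM in ISM012-042 libraries and 50.7 TPM in vehicle libraries (0.93, unadjusted p = 0.0154), and Ogt, whose intron is retained in the nucleus, had 0.80 (unadjusted p = 0.00264).

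The genes of smallest p on the higher side as deposited, among genes that averaged 5 TPM or more in ISM012-042 libraries and leaving out predicted genes, were Ttll10, Phldb1, Caskin2, Ap1g2, Zmym6 and Clasrp. Ttll10, a tubulin-modifying ligase, averaged 6.68 ± 2.14 TPM in ISM012-042 libraries and 3.11 ± 1.01 TPM in vehicle libraries (SD, n = 6 each), at 0.89 ± 0.19 (unadjusted p = 0.000203, adjusted p = 0.233). Phldb1 had 34.8, 32.3, 36.6, 36.4, 37.2 and 38.0 TPM in ISM012-042 libraries and 25.6, 18.5, 21.6, 21.9, 17.6 and 32.2 TPM in vehicle libraries. Its groups did not overlap, as was so for 92 genes on the higher side (0.651%), and its fold change was 0.65 ± 0.15 as deposited and 0.33 ± 0.15 after scaling. Clasrp, a splicing factor partner, averaged 19.5 ± 1.74 TPM in ISM012-042 libraries and 13.5 ± 2.602 TPM in vehicle libraries without overlap.

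After scaling the groups did not overlap for 9 genes on the higher side (0.0637%) and 56 on the lower side (0.396%). The 9 higher were Pias4, Zfp346, Arsb, Nisch, Tfcp2, Rubcn, Gm3435, Pogz and Zmym4. Arsb, a lysosomal sulfatase, had 9.69, 9.81, 11.7, 6.67, 6.17 and 9.27 TPM in ISM012-042 libraries and 4.54, 6.08, 4.69, 4.73, 3.14 and 6.80 TPM in vehicle libraries, at 0.72 ± 0.19 as deposited and 0.43 ± 0.11 after scaling. The 6 named genes of smallest p on the higher side after scaling were Atxn2l, Arsb, Atf7, Kmt2d, Pogz and Trrap. Atxn2l had the smallest (0.67 as deposited and 0.34 after scaling, scaled unadjusted p = 0.000423). Kmt2d (19823 bases) had 0.77 as deposited and 0.47 after scaling, and Trrap (12479 bases) had 0.60 and 0.31. Lengths of the others are not given here. Of the 56 lower genes, not all of which had an annotated length, 38 had a longest transcript under 2000 bases. Of these, 20 were under 1000 bases and 18 of 1000 to 2000. Those classes held 984 and 2809 of the 13410 tested genes with a length. Ddit3, the stress factor CHOP, with 890 bases, had -0.29 ± 0.17 as deposited and -0.61 ± 0.12 after scaling (unadjusted p = 6.47e-05, adjusted p = 0.555). Pet100 and Cox19, assembly factors of cytochrome oxidase, and Timm8b, a mitochondrial import chaperone of 518 bases, had -0.15, -0.03 and -0.10 as deposited and -0.48, -0.36 and -0.44 after scaling.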

How the data were processed

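Colon RNA of 18 mouse libraries was purified with TRI Reagent and the RNeasy kit and made into cDNA (FastKing), as the labels' protocols state. The authors deposited 1 table of TPM values for 35976 entries, with every column at the same total. The submitters' processing notes name DRAGEN 4.0.3 and the build mm10. The sources used here state neither their roles nor the annotation or strand setting. TPM holds no read depth, so the depth per library is unknown, and no counting interval is given.

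Genes with at least 1 TPM in at least 6 of the 18 libraries were kept (14129). Values were fitted as log2(TPM + 1), a pseudocount of 1 that understates changes of low genes, in limma 3.58.1 (R 4.3.3) with a mean-variance trend and robust variances. All 18 libraries shared 1 fit, the contrast was ISM012-042 minus vehicle, and p-values were adjusted by Benjamini-Hochberg over all genes tested. The fit was tested on simulated data. Values of whole libraries were compared by two-sided exact permutation over the 12 libraries.

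The 37 gene lists (22 of pathways, 15 of cell markers, with 625 of 664 genes tested) and the genes named were chosen with earlier results of these data known. Named genes are a fixed panel, the 6 of smallest p in each direction, the 6 of largest scaled fold change whose groups did not overlap, both averaging 5 TPM or more in the group where they are higher and leaving out predicted genes, and the 2 members of smallest p of each pathway list or 1 of each marker list. Other genes in the text were named as members of a small count or as list members after their values were seen. Alternatives were other pseudocounts and filters, median-ratio scaling, leaving out mitochondrial genes or single libraries, fitting the 12 libraries alone, array weights, a replicate block, and Hoxb13 or mitochondrial share as a covariate. Centring by transcript length class was chosen after seeing the data. Promoter sequences are from RefSeq, GRCm38.p6.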

Additional observations from a re-analysis of the deposited data

Results flagged for a closer look

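Among 216 groups of 6 values, 17 held a library far from the other 5 of its group by Dixon's test, where chance alone gives about 1 in 20, or 10.8.

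Replicate 2 of the ISM012-042 group stood apart in 5 genes. Its Vegfa was 90.89 TPM with the others at 37.12 to 47.85, its Epas1 44.69 TPM with the others at 27.29 to 32.3, and its Selenbp1 247.8 TPM with the others at 596.4 to 803.0. Its Timp2 was 66.11 TPM with the others at 27.43 to 33.77, and its Ptprb 8.765 TPM with the others at 2.3 to 3.55. ISM012-042 replicate 5 had 3.707 TPM of Axin2 with the others at 5.861 to 7.077. ISM012-042 replicate 6 had a long-minus-short value of 0.3079 with the others at 0.05716 to 0.115.

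Replicate 2 of the vehicle group stood apart in 4 genes. Its S100a8 was 12002 TPM with the others at 73.78 to 434.8, and its Ddit3 34.27 TPM with the others at 14.96 to 20.19. Its Selenbp1 was 207.5 TPM with the others at 378.4 to 459.9, and its Nfkb2 42.07 TPM with the others at 14.61 to 20.88. Vehicle replicate 4 had 146.2 TPM of Ckb with the others at 54.93 to 74.57, 87.42 TPM of Smtn with the others at 25.82 to 38.66, and 5.407 TPM of Gpm6a with the others at 1.306 to 2.279. Vehicle replicate 1 had 57.3 TPM of Irgm2 with the others at 10.33 to 18.57. Vehicle replicate 5 had 3.89 TPM of Kdm4b with the others at 5.402 to 6.391, and vehicle replicate 6 had 5.111 TPM of Ttll10 with the others at 2.432 to 3.1.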

How the results depend on the processing

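No gene passed the adjusted threshold in any of 15 alternatives or 12 fits without 1 library, and of 105 named genes 81 kept their sign in all of them. The count higher at an unadjusted p under 0.05 (2670) was 348 with median-ratio scaling, 244 with scaling in the 12 libraries, 1350 with array weights, 202 with length-class centring and 146 with that in the 12 libraries. Without 1 library it lay between 1324 (without vehicle replicate 5) and 3989. The count lower (18) was 726 with scaling, 647 with scaling in the 12 libraries, 36 in the 12 libraries, 11 with a pseudocount of 5, 75 with no filter, 78 without mitochondrial genes, 235 with array weights, 44 with Hoxb13 and 166 with the mitochondrial share as covariate, 49 without the 2 libraries highest in neutrophil genes, 245 with length-class centring and 234 with that in the 12 libraries. Without 1 library it lay between 10 (without ISM012-042 replicate 6) and 67 (without ISM012-042 replicate 2), with 11 without ISM012-042 replicate 1 and 32 without vehicle replicate 5. The cause was not tested. The mitochondrial share differed by -9.12 to -2.05 percentage points without 1 library.

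The fit with the replicate number as a block gave 3127 genes higher and 26 lower at an unadjusted p under 0.05 and none past the adjusted threshold. Same-numbered libraries of the groups had correlations of -0.38 to 0.61, and 1 of 6 ISM012-042 libraries correlated best with its own number, so the numbers were not taken to pair the samples.

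Fold changes of opposite sign under an alternative were as follows. With scaling, in 18 or 12 libraries, Aldoa had -0.034, Car4 -0.20, Egln3 -0.019, Krt8 -0.054, Muc2 -0.16, Myh14 -0.015, Ndrg1 -0.14, Nfkb2 -0.062, Rpl5 -0.11, Rps4x -0.10, Slc2a1 -0.069, Tff3 -0.14 and Zmat2 -0.31. With length-class centring, in 18 or 12 libraries, Car4 had -0.062, Muc2 -0.093, Myh14 -0.076, Ndrg1 -0.072, Neurod1 -0.050, Nfkb1 -0.016, Nfkb2 -0.047, Nos1 -0.10, Rpl5 -0.043, Slc2a1 -0.045 and Zmat2 -0.25. With array weights Cenpf had -0.27, Egln3 -0.36, Hoxb13 -0.55, Mki67 -0.38, Nfkb2 -0.044, Reg3b 0.75, Tff3 -0.056 and Zmat2 -0.26. Without mitochondrial genes Car4 had -0.020 and Zmat2 -0.14. With the mitochondrial share as covariate Egln3 had -0.16, Hoxb13 -0.36, Mki67 -0.0084 and Zmat2 -0.16, and with Hoxb13 Zmat2 had -0.046. Without the 2 libraries highest in neutrophil genes Cox19 had 0.0023. Without 1 library Cox19 lay between -0.13 and 0.041, Dpcd lay between -0.16 and 0.029, Hp lay between -0.17 and 1.27, Timm8b lay between -0.22 and 0.00078, and Zmat2 lay between -0.094 and 0.10.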
